A study of Triticum aestivum with 12 samples.

Results

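TraesCS5A02G348400 is a gene of bread wheat (Triticum aestivum) that the deposited annotation describes as a flavin-containing monooxygenase. It was picked by its identifier and is 1 of the 83486 genes in the deposited expression table. It lies on the plus strand of chromosome 5A, from 552069609 to 552072551 in the IWGSC annotation used by the deposited files, and is listed as protein-coding over a span of 2943 bp. The values come from RNA sequencing of the Najran cultivar, in 12 libraries of 4 groups, the roots and the shoots of control and of salt-treated plants, with 3 replicates each. For 4 weeks from germination, salt-treated plants were watered with NaCl at 200 mM and control plants with tap water, which the labels give as 0 mM. Roots and shoots were harvested from the same set of plants, and each library came from the pooled tissue of 2 plants. All groups share the cultivar, the growth conditions and the sampling age, so the comparisons describe long exposure in a single genotype.

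Flavin-containing monooxygenases carry a bound flavin and use NADPH and molecular oxygen to add an oxygen atom to a small molecule, commonly at a nitrogen or sulfur atom. In Arabidopsis the family has several branches. The YUCCA enzymes make the auxin indole acetic acid from a product of tryptophan, FMO1 makes N-hydroxypipecolic acid, a signal of systemic immunity, and a further branch oxidises the sulfur of glucosinolates. The files do not say to which branch TraesCS5A02G348400 belongs.

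The study also designed an RT-qPCR primer pair for this gene, which is shown because it is the sequence by which the transcript is otherwise measured in the same study. Both are printed 5′ to 3′ in lower case, are 20 bases long, and have a GC content of 45% and 55%. They were not placed on the gene here.
FCM-F: cagaaacattgccattccag
FCM-R: ggaggaccggtaacaagagt

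The level of each gene is given as a normalized count, an estimate of reads per gene that the authors scaled between libraries. It is not divided by gene length, so levels are compared between libraries and not between genes. Normalized counts summed to between 13890189 and 15863307 in root libraries and between 18565098 and 25371113 in shoot libraries. The organs matched their labels: 65 genes described as chlorophyll a-b binding took 0.00155% to 0.00589% of the total in roots and 1.39% to 2.25% in shoots, and 23 Rubisco small subunit genes took 0.00131% to 0.00797% and 2.19% to 4.21%. In a whole organ, a change in the share of the cells that express a gene and a change of the RNA per cell cannot be told apart. Wheat carries near-identical copies of many genes on its A, B and D genomes, and the estimation can split reads among them, so the values of TraesCS5A02G348400 and of its relatives carry that uncertainty. The library kit kept no strand, so reads of an antisense transcript would be counted with the gene.

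TraesCS5A02G348400 was close to the floor of the table in both organs of unstressed plants and was higher in every salt-treated library. In control roots its normalized count was 0.839, 2.33 and 0.933 in replicates 1, 2 and 3 (mean 1.37 ± 0.836, SD, n = 3). In salt-treated roots it was 63.5, 40.8 and 40.1 (mean 48.1 ± 13.3, SD, n = 3). The root groups did not overlap, and the lowest salt-treated root library was far above the highest control root library. In control shoots the normalized count was 0, 2.85 and 5.31 (mean 2.72 ± 2.66, SD, n = 3). In salt-treated shoots it was 40.6, 35.7 and 15.0 (mean 30.4 ± 13.6, SD, n = 3). The shoot groups did not overlap either, although both spread more widely around their means than the salt-treated roots, with coefficients of variation of 97.7% in control and 44.8% in salt-treated shoots against 27.6% in salt-treated roots. Across both organs the highest control value was 5.31 and the lowest salt-treated value was 15.0. None of the control libraries (0 of 6) and each of the salt-treated libraries (6 of 6) reached a normalized count of 10.

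**Figure D1:**
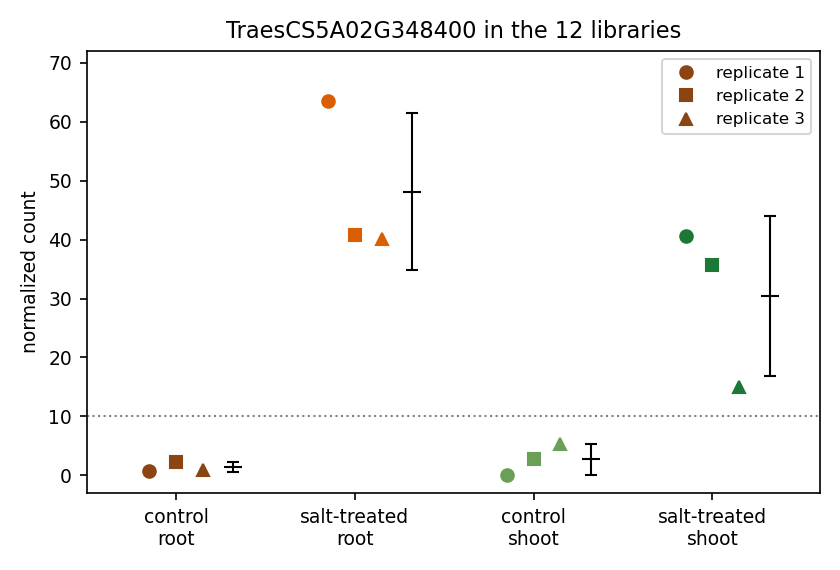
Normalized count of TraesCS5A02G348400 (vertical axis, linear) in each of the 12 libraries, by group. Symbols mark the replicate number, the black bar is the mean ± SD of 3 libraries, and the dotted line is the normalized count of 10 used as a filter. All 6 control libraries lie below the line, at 5.31 or less, and all 6 salt-treated libraries lie above it, at 15.0 or more.

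In roots, the mean normalized count was 35.2 times as high under salt as in controls. Leaving out 1 library moved this ratio between 29.5, without control root replicate 1, and 54.3, without control root replicate 2. Because the control level is only a few estimated reads, the size of the fold rests on a small denominator. On the log2(normalized count + 1) scale, where the added 1 shrinks the change of a low gene, the log2 fold change was 4.40 with a standard error of 0.44 (95% interval 3.37 to 5.43). The gene was called up-regulated in roots by limma with Benjamini-Hochberg adjustment over 44737 genes (adjusted p = 0.00239), where a call needed an adjusted p below 0.01 together with a log2 fold change of 1 or more in either direction. Of all root genes tested, 1.17% were called up-regulated, and 17.3% had all salt-treated libraries above all controls. The gene ranked 98th of the 44737 by log2 fold change, above 99.8% of them, beside a median of −0.02 over all genes.

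The root call did not hold in 4 of the 6 fits that left out a library. It was lost without control root replicate 1, 2 or 3 (adjusted p = 0.0107, 0.0158 and 0.0134 by limma) and without salt-treated root replicate 1 (adjusted p = 0.0110), while the log2 fold change stayed between 4.19 and 4.67. The same removals lowered the calls over the whole table. Of 1553 root genes called in either direction with all libraries, 0 were called without control root replicate 2, where 10546 genes had an unadjusted p under 0.05 by limma and the lowest adjusted p was 0.0120. Without salt-treated root replicate 3 the root calls rose to 2669, and the call of this gene held (adjusted p = 0.00405 by limma). The study describes a salt-treated root library as an outlier in its principal component plot, without giving its number.

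In shoots, the mean normalized count was 11.2 times as high under salt as in controls. The ratio ranged from 7.45 without control shoot replicate 1 to 21.3 without control shoot replicate 3. Control shoot replicate 1 had the lowest RNA integrity and the fewest mapped reads of the 12 libraries. Any effect of this on its value was not tested. The log2 fold change was 3.32 with a standard error of 0.76 (95% interval 1.57 to 5.07). By limma the adjusted p was 0.0229 over 44647 genes, which did not pass 0.01, so the gene was not called in shoots although all 3 salt-treated libraries lay above all 3 controls. Among shoot genes tested, 2.3% were called up-regulated and 16.4% had groups apart in this direction. By log2 fold change the gene ranked 351st in shoots, above 99.2% of the genes, beside a median of −0.01. It passed the threshold in shoots when the 12 libraries shared a single fit (adjusted p = 0.00513 by limma).

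These tests are not independent evidence of a response, because the study had picked the gene for RT-qPCR from its own calls on the same libraries. In addition, the gene entered both salt comparisons through its salt-treated libraries alone, since a gene was tested when its normalized count was at least 10 in at least 3 libraries. A gene admitted in this way has groups that do not overlap by construction. By its own test on counts, the study listed TraesCS5A02G348400 as up-regulated in both roots and shoots. It reported RT-qPCR changes in the same direction, measured in the same RNA samples.

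The larger response in roots was not separable from that in shoots. The difference of the log2 fold changes, shoot minus root, was −1.07 with a standard error of 0.89 (95% interval −3.02 to 0.87, adjusted p = 0.557 by limma over 51487 genes, of which 2.13% were called). Salt-treated shoots had a log2 level lower by 0.73 on the log2(normalized count + 1) scale than salt-treated roots. The standard error was 0.43 and the adjusted p was 0.216 by limma. The 2 groups overlapped at 40.6 in a shoot library and 40.1 in a root library. These fits did not pair roots with shoots. With a block for the replicate number, the adjusted p by limma was 0.560 for the difference of the responses. It was 0.142 between salt-treated shoots and roots. Between the organs of control plants the gene was not tested, as no library reached a normalized count of 10. Its mean on the log2 scale was 1.19 ± 0.48 in control roots and 1.53 ± 1.38 in control shoots (SD, n = 3), and an exact two-sided permutation test of these gave p = 0.7.

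By mean level the groups stood in the order control root, control shoot, salt-treated shoot and salt-treated root. Of the 6 pairs of groups, the 4 pairs of a salt-treated with a control group did not overlap. Each gave p = 0.1 in an exact two-sided permutation test, the smallest that 3 against 3 libraries allow, and 0.15 after adjustment over the 6 pairs. The neighbours within a treatment overlapped, with exact p = 0.2 (adjusted 0.24) between salt-treated shoots and roots and p = 0.7 (adjusted 0.7) between control roots and shoots.

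A level in which all 6 salt-treated libraries exceed all 6 control libraries was found for 918 of 51487 genes (1.78%), TraesCS5A02G348400 among them. A log2 fold change of at least 3 in both organs, a limit set after the values were seen, was reached by 39 of the 38669 genes tested in both (0.101%). Up-regulation was called in both organs for 111 of them (0.287%), and TraesCS5A02G348400 was not among these because of its adjusted p in shoots.

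The deposited comparison tables describe 44 other genes as flavin-containing monooxygenases. With TraesCS5A02G348400 the 45 genes lie on all but a few of the wheat chromosomes, with 8 on 5A, 6 on 2B and 5 on 5B as the largest groups. Their spans ran from 1599 to 10756 bp with a median of 2653 bp for the 44, so the 2943 bp of TraesCS5A02G348400 are ordinary. These tables list only genes that the authors called in at least 1 of their comparisons. The 44 are therefore not all wheat genes of the family, and counts of changed members are raised by that choice.

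The relatives were counted in the salt comparisons by the same thresholds. In roots 29 of the 44 genes were abundant enough to be tested, and limma called 1 of them up-regulated and 1 down-regulated, beside 1.17% and 2.3% of all root genes (3.47% in either direction). At an unadjusted p under 0.05 were 14 of the 29, and 14064 of all 44737 root genes. Their median log2 fold change was −0.17, against −0.02 over all genes. In shoots 17 passed the filter and 1 was called up-regulated and 0 down-regulated, beside 2.3% and 2.99% of all shoot genes (5.28% in either direction), with 7 of the 17 and 13556 of all 44647 shoot genes at an unadjusted p under 0.05. Their median was 0.51, against −0.01. At an adjusted p under 0.05 the counts were 3 up and 6 down in roots, where 12% of all genes were called, and 5 up and 2 down in shoots, where 10.2% were. None of the tested relatives (0 of 29 in roots, 0 of 17 in shoots) had a larger log2 fold change than TraesCS5A02G348400. All salt-treated libraries were above all controls in 0 of the 38 relatives that passed the filter over 12 libraries, beside 1.78% of all genes, so the count of 0 does not set the relatives apart from other genes.

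**Figure D2:**
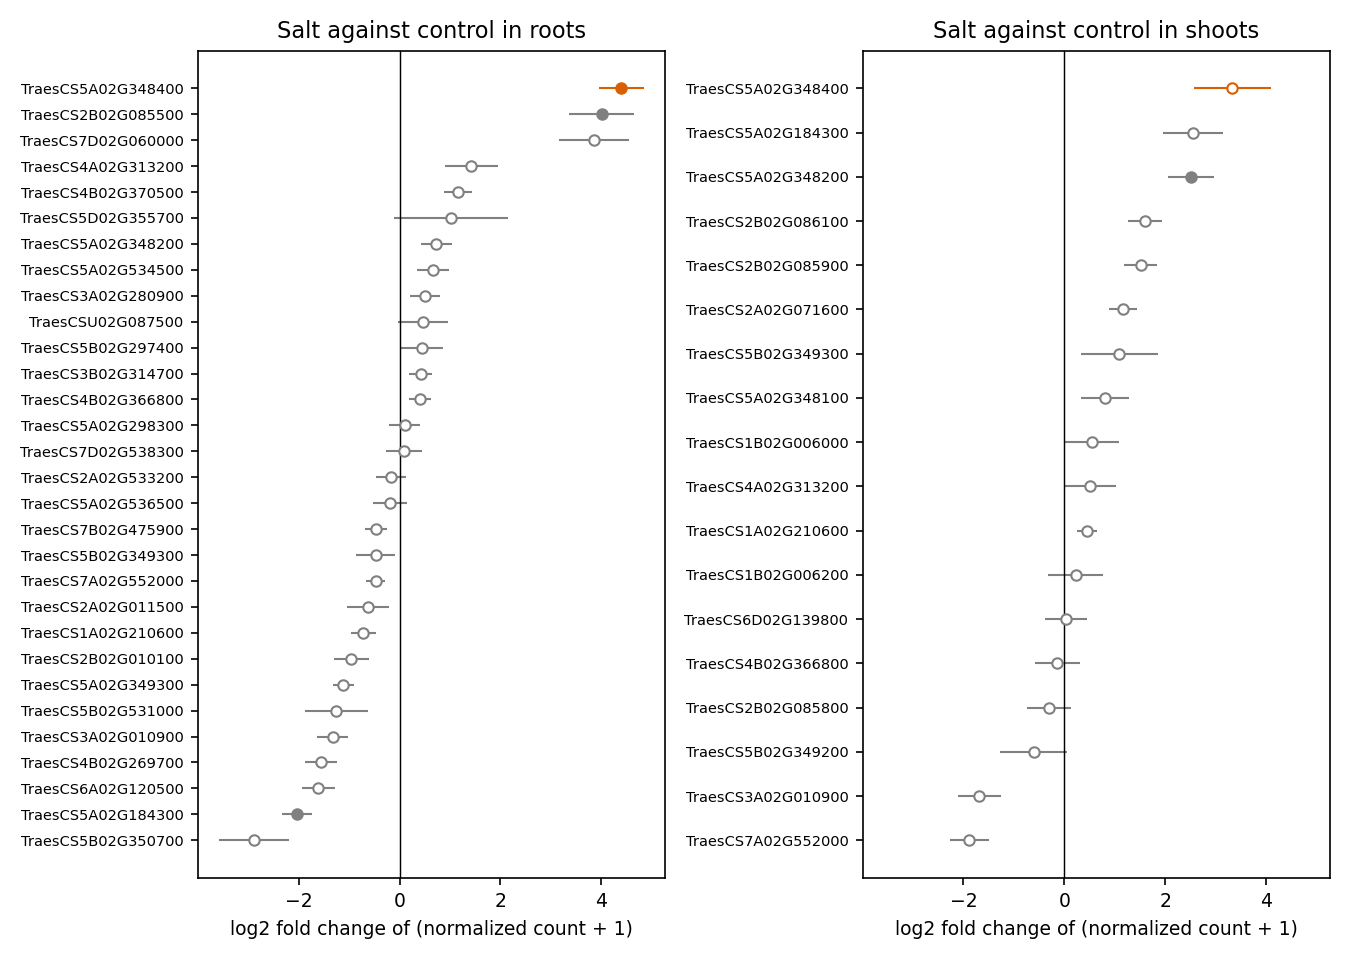
Log2 fold change of normalized count + 1 under salt (horizontal axis) for each flavin-containing monooxygenase gene tested in roots (left) and shoots (right), with bars of 1 standard error. Filled points passed the thresholds. TraesCS5A02G348400, in orange, has the highest value in each organ, at 4.40 in roots and 3.32 in shoots.

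The relative called up-regulated in roots was TraesCS2B02G085500, with a root pattern like that of TraesCS5A02G348400. Its normalized count was 0.839, 2.33 and 0 in control roots and 19.9, 21.3 and 54.1 in salt-treated roots. It too passed the filter through its salt-treated roots alone, so these groups could not overlap. The log2 fold change was 4.01 with a standard error of 0.65, and its adjusted p of 0.00999 by limma was just inside the threshold and passed it in none of the 6 fits without 1 root library (0.0196 to 0.0337). In shoots it remained between 0 and 2.46 in both treatments and was not tested, so it parts from TraesCS5A02G348400 there by its level under salt.

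TraesCS7D02G060000 came next in roots. Its normalized count was 5.04, 0 and 2.80 in control roots and 45.1, 29.7 and 48.0 in salt-treated roots. These groups were also apart by construction, as the gene passed the filter through its salt-treated roots alone. The log2 fold change of 3.85 had a standard error of 0.69 and an adjusted p of 0.0142 by limma, outside the threshold. In shoots it was listed at 0, 0.951 and 2.12 in controls and 18.5, 2.46 and 16.0 under salt. It is named because of its place next to the called genes, which was seen after its values were known.

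The relative called down-regulated in roots was TraesCS5A02G184300, on 5A from 383945079 to 383948279. Its normalized count fell from 42.0, 67.6 and 56.9 in control roots to 11.5, 13.9 and 12.2 in salt-treated roots. The log2 fold change was −2.04 with a standard error of 0.30 (adjusted p = 0.00707 by limma). The call was lost in 5 of the 6 fits without 1 root library (adjusted p from 0.0136 to 0.0496). Its shoot libraries were at 1.63, 5.71 and 2.12 in controls and 30.8, 25.8 and 11.7 under salt. The log2 fold change of 2.54 had an adjusted p of 0.0241 by limma. The shoot groups were apart in the opposite direction, but by construction, as the gene passed the shoot filter through its salt-treated libraries alone. Of the 38 relatives tested for a difference of the salt response between organs, it was the 1 called, beside 2.13% of all genes. That count does not set the relatives apart from other genes.

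TraesCS5A02G348200 was the relative called up-regulated in shoots and is a neighbour of TraesCS5A02G348400. Its normalized count was 99.2, 39.0 and 35.0 in control shoots and 473, 310 and 180 in salt-treated shoots, with a log2 fold change of 2.51 and a standard error of 0.46 (adjusted p = 0.00917 by limma). The call was lost in 4 of the 6 fits without 1 shoot library (adjusted p from 0.0259 to 0.0395). In roots it was 28.5, 24.1 and 20.5 in controls and 34.4, 34.3 and 56.7 under salt. Those groups were apart too, but the log2 fold change of 0.73 had an adjusted p of 0.158.

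Of the 7 other described family genes on 5A, 3 lie near TraesCS5A02G348400. TraesCS5A02G348100, from 551043037 to 551045876, and TraesCS5A02G348200, from 551047743 to 551050672, lie side by side on the minus strand 1.02 Mb before it. TraesCS5A02G349300, from 552503248 to 552505083 on the minus strand, lies 431 kb after it. These near genes differed in the organ and the direction of their values. TraesCS5A02G348100 was at 13.0, 8.56 and 13.8 in control shoots and 11.1, 30.7 and 26.7 in salt-treated shoots, overlapping groups with a log2 fold change of 0.81 (adjusted p = 0.291 by limma). Its root libraries were all under 10. TraesCS5A02G349300 was a root gene in these data, at 2.12 or less in every shoot library. In roots it stood at 291, 305 and 446 in controls and at 148, 165 and 157 under salt, with a log2 fold change of −1.12 that did not pass the threshold (adjusted p = 0.0164).

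**Figure D3:**
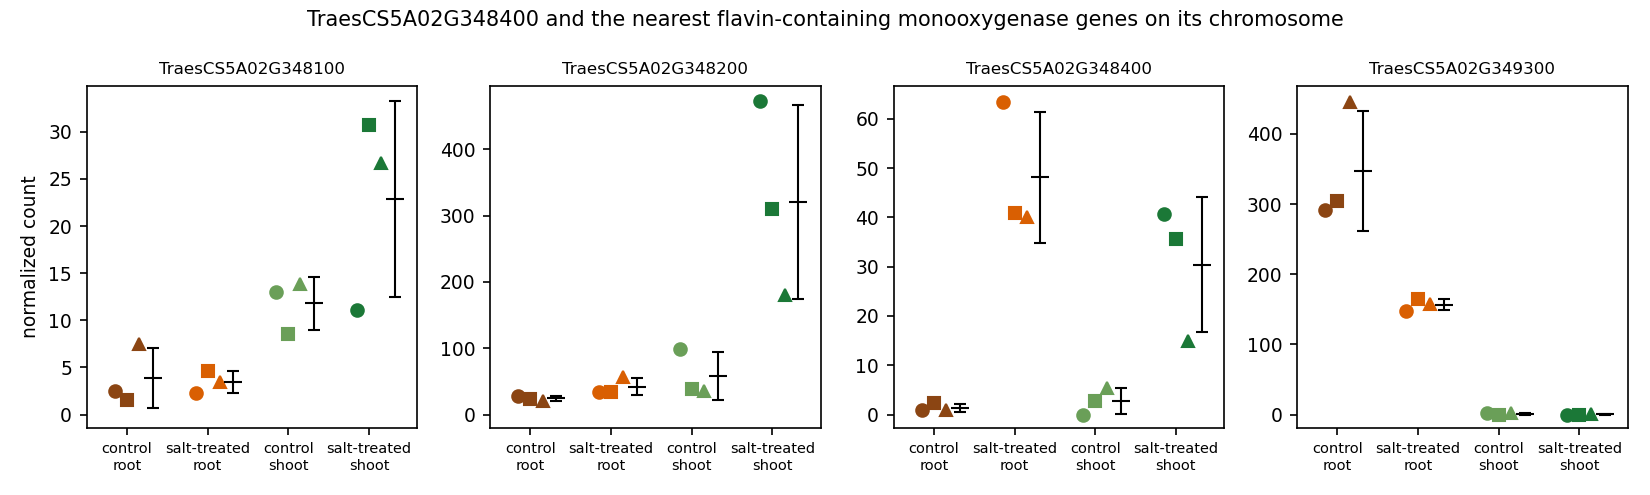
Normalized count (vertical axis, linear, own scale in each panel) of TraesCS5A02G348400 and its 3 nearest described relatives on chromosome 5A, in chromosome order. Points are libraries, with circles, squares and triangles for replicates 1, 2 and 3, and black bars are the mean ± SD of 3. TraesCS5A02G348400 is near 0 in both control groups, while TraesCS5A02G348200 is highest in salt-treated shoots and TraesCS5A02G349300 is near 0 in shoots.

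The remaining relatives on 5A, 5B and 5D passed the thresholds in neither salt comparison. TraesCS5A02G298300, TraesCS5A02G534500, TraesCS5A02G536500 and TraesCS5B02G297400 were at 10 or more in every root library, with log2 fold changes from −0.20 to 0.67, and under 10 in every shoot library. TraesCS5B02G531000 was at 31.9, 26.4 and 30.8 in control roots and 5.35, 8.35 and 34.9 in salt-treated roots. TraesCS5B02G350700 had 1248, 1069 and 195 in control roots and 68.0, 135 and 68.1 in salt-treated roots. Its groups did not overlap, but control root replicate 3 stood far from the other control libraries and the log2 fold change of −2.89 had an adjusted p of 0.0341 by limma. TraesCS5D02G355700 varied from 1.68 to 94.3 within control roots, a spread wider than the difference of its group means. TraesCS5B02G349200 and TraesCS5B02G349300 were measured mainly in shoots, where their log2 fold changes were −0.61 and 1.09 with adjusted p of 0.585 and 0.378. TraesCS5D02G354400 ranged from 2.12 up to 6.51 in the shoots of controls and from 9.61 up to 20.9 in those of salt-treated plants, with 2 libraries at 10 or more, too few for the test.

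Most of the described relatives were lower in shoots than in roots. Between organs of control plants, limma called 23 of the 31 relatives tested lower in shoots and 4 higher, beside 16.7% and 19.6% of all genes (36.3% in either direction). In salt-treated plants 21 of 33 were lower in shoots and 8 higher, beside 12.3% and 17.4% (29.8% in either direction). The relatives are described only where the authors called them in some comparison, and some of those comparisons were between these organs. Their shares are therefore raised by that choice and cannot be set against those of all genes without that limit. Normalized counts were under 10 in every shoot library for 22 of the 44, and under 10 in every root library for 8. TraesCS5A02G348400 reached 10 in the salt-treated libraries of both organs, and its difference between them did not pass the threshold (adjusted p = 0.216 by limma).

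Of the 3 listed genes nearest on each side, 2 are the relatives just described and the others have no description. TraesCS5A02G348600 starts 84.8 kb after it and changed the other way in roots. Its normalized count was 2542, 4213 and 3663 in control roots and 323, 430 and 221 in salt-treated roots, a log2 fold change of −3.44 with a standard error of 0.29 (adjusted p = 0.00151 by limma). In shoots it was at 6.16 or less. TraesCS5A02G348800 ranged from 22.3 up to 48.8 in the shoots of controls and from 2.46 up to 13.9 in those of salt-treated plants, a log2 fold change of −2.40 outside the threshold (adjusted p = 0.0335). TraesCS5A02G348900 reached 31.7 in a control shoot library and was at 6.50 or less under salt. TraesCS5A02G347600, before the pair of relatives, was at 31.1 to 46.7 in control and 37.5 to 44.5 in salt-treated roots. Positions were known only for genes of the comparison tables, so genes between these are left out.

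The genes whose pattern was most like that of TraesCS5A02G348400 were found by Pearson correlation of log2(normalized count + 1) over the 12 libraries, among 51486 other genes. The 10 highest coefficients ran from 0.934 to 0.961, beside a median of −0.01 over all genes. Which genes these are depends on the measure, since 2 of the 10 were also among the highest by Spearman correlation and 3 with a pseudocount of 0.1. Libraries of a group share their treatment and organ, so these coefficients mostly compare 4 group levels and are given as a description. The highest was that of TraesCS7B02G093800, described as a starch synthase of the plastid (r = 0.961), which makes the glucan chains of starch. Its normalized count was 5.01, 3.86 and 1.90 in control roots, 54.7, 48.9 and 62.5 in salt-treated roots, 3.23, 7.56 and 7.56 in control shoots and 35.5, 45.0 and 37.1 in salt-treated shoots. Its log2 fold changes were 3.67 in roots and 2.56 in shoots, which describe the pattern it was picked for and test nothing.

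TraesCS4A02G234100, with no description, had log2 fold changes of 3.99 and 3.20 (r = 0.934). TraesCS1A02G371400, described as an E3 ubiquitin-protein ligase, had smaller log2 fold changes, of 1.36 in roots and 1.14 in shoots, with r = 0.934. The others were TraesCS3A02G021900, TraesCS7B02G359800, TraesCS5A02G236100, TraesCS3B02G395700, TraesCS2A02G489700, TraesCS5B02G301600 and TraesCS6D02G184600, none of which has a description. None of the 10 is described as a flavin-containing monooxygenase, but only 2 of them have a description. Of the 38 relatives that could be compared, 24 had a positive coefficient, with a median of 0.0514, and TraesCS7D02G060000 had 0.805.

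**Figure D4:**
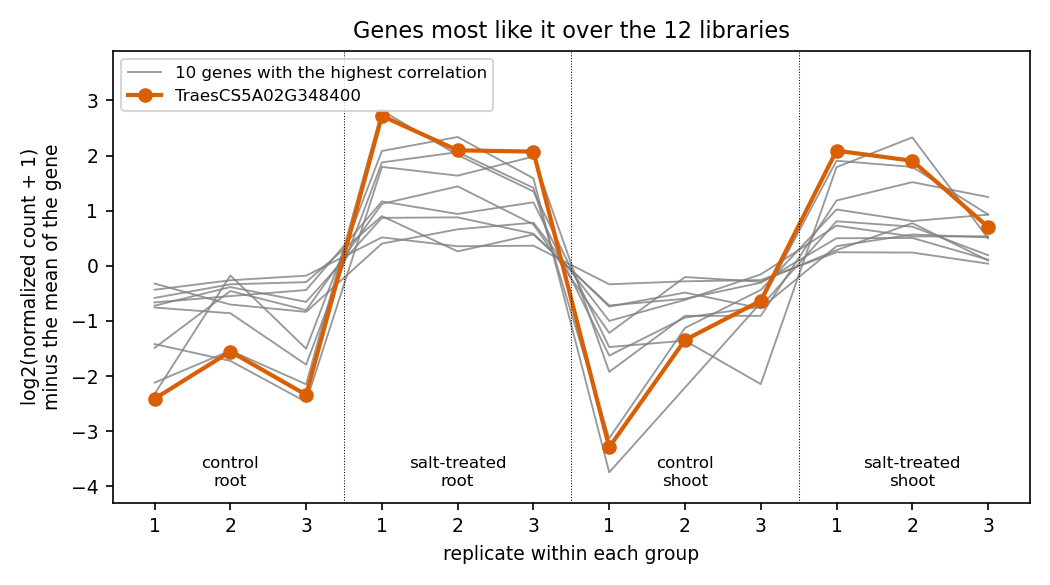
Log2(normalized count + 1) minus the mean of the gene over 12 libraries (vertical axis) for TraesCS5A02G348400, in orange, and the 10 genes with the highest correlation, in grey, by replicate within each group. Lines join libraries for reading only. All are higher in salt-treated than in control libraries, and the grey lines differ in how far they move.

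Genes around auxin and its precursor were counted because some enzymes of this family make auxin. Of 74 genes with auxin or indole-3 in their description, 64 were tested in roots, where 2 were up-regulated and 13 down-regulated. The median log2 fold change of the 64 was −0.72. Of all root genes 1.17% were up-regulated and 2.3% down-regulated, with a median of −0.02. In shoots 68 were tested, with 1 up-regulated and 9 down-regulated and a median of −0.48, beside 2.3% and 2.99% of all shoot genes and a median of −0.01. These genes too are described only where the authors called them in some comparison, so the shares cannot be set against those of all genes without that limit. Among them, 3 genes described as auxin-responsive proteins fell in roots. TraesCS3A02G276500 was at 289.9 ± 22.0 in control and 64.2 ± 10.2 in salt-treated roots (SD, n = 3), a log2 fold change of −2.17 (adjusted p = 0.00167 by limma). TraesCS7A02G371500 and TraesCS7B02G256100 had log2 fold changes of −2.98 and −2.65 in roots.

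In shoots TraesCS3A02G108400 fell by 1.80 on the log2 scale and TraesCS5B02G342500, described as a SAUR protein that restrains auxin synthesis and transport, fell by 2.43. TraesCS6A02G111900, an auxin-responsive protein, rose from 6.64 ± 2.98 in control to 65.3 ± 5.50 in salt-treated shoots (SD, n = 3), a log2 fold change of 3.19. Of 4 genes described with tryptophan, anthranilate or indole-3-glycerol, limma called 1 in roots and 0 in shoots, beside 3.47% and 5.28% of all genes. At an unadjusted p under 0.05 were 4 in roots and 1 in shoots. TraesCS7B02G294800, the beta chain of tryptophan synthase, which makes the last step to tryptophan, had 519 ± 95.8 in control roots and 2093 ± 610 in salt-treated roots (SD, n = 3), a log2 fold change of 1.99 (adjusted p = 0.00416). Of 4 genes described as other monooxygenases, limma called 0 in roots, with 3 at an unadjusted p under 0.05, and 1 in shoots, the cytochrome P450 TraesCS3A02G132000 with a log2 fold change of −1.12.

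TraesCS5A02G348400 was also on a list of 8 genes with RT-qPCR primers. Of the 8 genes, 7 were tested in roots by limma and 2 passed the thresholds, beside 3.47% of all root genes. These were TraesCS5A02G348400 and the dirigent protein gene TraesCS4A02G431400, both up-regulated. The latter, of a family that guides the coupling of phenylpropanoid radicals, had a log2 fold change of 4.98 in roots and 6.94 in shoots. In shoots 7 were tested, with 4 up-regulated and 1 down-regulated, beside 5.28% of all shoot genes in either direction. Since these genes were picked from calls on the same libraries, their shares are raised by that choice and are not evidence of direction.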

How the data were processed

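RNA of Najran roots and shoots was sequenced as paired reads from non-directional libraries. Per the labels and the study's methods, the authors checked reads with FastQC 11.8, trimmed them with Trimmomatic 0.36, estimated transcripts with Salmon 0.12.0 against the IWGSC annotation of Ensembl Plants, summed them to genes with tximport and normalized them with DESeq2. The deposited values are a signal per gene and library, an estimated count divided by a normalization factor, from which whole reads were not recovered. The study lists the mapped reads of each library, with the fewest in control shoot replicate 1. That library also had the lowest RNA integrity number in the report of the sequencing provider. The reads behind single values were not recovered, so no counting interval is given and precision rests on 3 libraries a group. The authors' fold changes, p-values and test columns in the 4 comparison tables were not used. Those tables gave positions and descriptions (24878 genes, 5159 of them described). Of the gene identifiers, 0 matched the reference table at hand, and no gene or protein sequence was used.

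Groups came from the labels. Log2(normalized count + 1) was fitted with limma 3.58.1 in R 4.3.3, with empirical Bayes moderation and a variance trend, and adjusted by the Benjamini-Hochberg method. The study's own test was made on counts, which the deposited unit does not allow. The difference of the salt response between organs came from a single fit with 12 libraries and 4 group means. The fit was run on simulated data with normal errors on the log2 scale and known changes at randomly picked genes. That run checks the code and says nothing about a gene close to the floor in controls. Figures were drawn with matplotlib 3.10.9.

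Named genes were TraesCS5A02G348400, its described relatives that passed in a salt comparison or lie on 5A, 5B or 5D, the 10 most correlated genes, the 3 nearest listed genes on each side and up to 3 called genes per list and organ. TraesCS7D02G060000 lies outside this rule. The gene, lists and rules were chosen with earlier results of these data known. A list of root markers had 0 described genes, so only shoot markers were checked. The study calls the replicates biological, each a pool of 2 plants, and took roots and shoots from the same plants, without saying whether a number marks the same pool in both organs. Same-numbered control root and control shoot libraries deviated together (r from 0.133 to 0.315 over genes). This is a hint from the data that their numbers pair them. The main fits and the permutation tests used no pairing, and only the alternative with a replicate block did. Salt-treated roots and shoots had r from 0.0681 to 0.257. In both treatments each root library correlated best with the shoot library of its own number (3 of 3). In every other pair of groups the coefficients were under 0.1. Alternatives were a threshold of 0.05, pseudocounts of 0.1 and 10, no filter, a mean of at least 50, scaling to equal totals, no variance trend, a replicate block, a fit of all 12 libraries and leaving out each library.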

Additional observations from a re-analysis of the deposited data

Results flagged for a closer look

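The salt response of TraesCS5A02G184300, a flavin-containing monooxygenase gene on 5A, differed between the organs by a test of the difference itself. The log2 fold change in shoots minus that in roots was 4.58 (adjusted p = 0.00172 by limma over 51487 genes), from −2.04 in roots and 2.54 in shoots. All 3 salt-treated root libraries lay below the control roots. In shoots the gene passed the filter through its salt-treated libraries alone, so those groups were apart by construction. The shoot change by itself was not called (adjusted p = 0.0241 by limma). The root call was lost in 5 of the 6 fits without 1 root library. Without 1 library the difference was between 4.31 and 4.99 with an adjusted p of 0.00782 or less. For TraesCS5A02G348400 the same difference was −1.07 and was not called.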

How the results depend on the processing

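Leaving out 1 library moved the log2 fold change of TraesCS5A02G348400 between 4.19 and 4.67 in roots. It moved between 2.56 and 3.88 in shoots, where the adjusted p stayed above 0.01 (0.0254 to 0.0870). In shoots the value of 3.32 passed at a threshold of 0.05 and in the fit of all 12 libraries, also 3.32. A pseudocount of 0.1 gave 5.15 in roots and 4.58 in shoots, and one of 10 gave 2.33 and 1.62. Under the filter of a mean of at least 50 the gene was not tested. With the replicate block the root log2 fold change of 4.40 had an adjusted p of 0.0129, outside the threshold, and the block left 0 relatives called in roots, with 12 at an unadjusted p under 0.05 by limma, and 2 in shoots. Over all root genes it left 285 calls of 1553. Same-numbered control and salt-treated libraries share only a number (r from −0.01 to 0.10 in roots and 0.01 to 0.05 in shoots). The block changed no other call of TraesCS5A02G348400, and the cause of these shifts was not tested.

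With library totals made equal, the median over all genes shifted from −0.02 to 0.12 in roots and from −0.01 to 0.19 in shoots on the log2 scale. The root change of TraesCS5A02G348400 was then 4.62, its salt-treated shoots and roots no longer overlapped (5 pairs of groups apart instead of 4, log2 difference −1.18, adjusted p = 0.0460), and 1390 of 2283 shoot genes called were up-regulated, against 1026 of 2359.

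Among relatives, the 2 called in roots became 9 at a threshold of 0.05, 1 with a pseudocount of 0.1 and 1 without the variance trend. Under the filter of a mean of at least 50 they became 0 of 12 tested, with 6 at an unadjusted p under 0.05 by limma. The 1 called in shoots became 7, 0 and 0 under the first 3 of these, with 7 and 8 at an unadjusted p under 0.05, and 3 both with scaling and with all 12 libraries. Without 1 library the counts ran from 0 to 2 in either organ, with at least 7 at an unadjusted p under 0.05. Between organs, 27 of the 31 relatives tested were called in control plants and 29 of 33 in salt-treated plants. Under the filter of a mean of at least 50 fewer were tested, and 9 of 11 and 12 of 12 were called. Without 1 library the calls ran from 23 to 27 in control and from 26 to 28 in salt-treated plants. Of the 10 most correlated genes, 2 were shared with the 10 by Spearman correlation, 3 with a pseudocount of 0.1, 6 with one of 10 and 3 after scaling. The organ difference in control plants turned from 0.35 to −0.19 with a pseudocount of 0.1.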
